A study of Mus musculus with 95 samples.

Results

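The lungs of 6 CD40L-KO mice of the day 32 experiment are described here, 6 of the 95 arrays in the series: 3 mice that shared a cage with a seeder mouse infected with Pneumocystis murina for 32 days, and 3 unexposed mice killed at the same time. They were chosen by their labelled strain, day and exposure, and all genes were compared between the 2 groups. All 6 mice lack CD40 ligand, are labelled female and 8 weeks old, and each array holds the total RNA of 1 whole-lung homogenate. The sources used here do not name the strain the knockout was bred on. The exposed and the unexposed mice were each kept in 1 cage, together with C57BL/6 mice of the same age that are used below for comparison (3 exposed and 2 unexposed arrays), so exposure and cage cannot be told apart. Each replicate is 1 mouse, and the p-values treat cage mates as independent.

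CD40 ligand is a surface protein of activated helper T cells. It engages CD40 on B cells, macrophages and dendritic cells, and drives antibody class switching, germinal centres and the activation of macrophages. Pneumocystis is a fungus that lives attached to the alveolar epithelium; hosts without CD4 T cells or CD40 ligand do not clear it. The comparison asks whether lungs without CD40 ligand changed their gene expression after a month of exposure. In whole-lung RNA, fewer cells of a type and less RNA per cell cannot be told apart.

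Levels are log2(intensity + 8), where intensity is the deposited value of a gene's brightest probe set, so the lowest possible level is 3. Differences are exposed minus unexposed means on that scale, with the standard error (SE) and limma's p-value adjusted over 8251 genes; the scale understates the change of dim genes, and the number of mice limits the precision. A gene passed if its adjusted p was under 0.05. Array medians of the 6 arrays lay between 38.9 and 44.2 intensity units, and 0 of their 15 pairs held identical values. The alveolar and airway genes Sftpc, Sftpb, Scgb1a1 and Ager, which define lung, had a mean level of 12.23 to 12.55 on all 6. Xist lay between 6.85 and 7.35 and the Y-linked Eif2s3y between 3.25 and 4.24, which does not go against the labelled sex. Cd40lg itself lay between 3.20 and 3.41 in both groups, close to the lowest possible level, and so does not check the genotype.

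3 of the 6 arrays stood apart because they carried transcripts of squamous epithelium and skeletal muscle. Krt13, a keratin of the suprabasal layers of squamous epithelium, was at 4.37, 4.12 and 9.34 in the exposed mice and at 11.22, 11.71 and 4.87 in the unexposed mice. Exposed mouse 3 and unexposed mice 1 and 2 were high and the other 3 low, so the groups overlapped. The difference of -3.32 (SE 1.76) did not pass (limma adjusted p = 0.422). It was -0.62 without the 3 high arrays. That leaves exposed mice 1 and 2 against unexposed mouse 3 alone, here and wherever the squamous arrays are left out below. The other probe sets of Krt13 gave -3.27 to 0.74.

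The partner keratin Krt4 was at 6.23, 7.01 and 10.87 in the exposed mice and at 12.34, 12.50 and 6.34 in the unexposed mice, with the same 3 arrays high. Sprr3, a cornified envelope protein, was at 4.33, 4.45 and 8.90 in the exposed and at 10.10, 11.25 and 3.86 in the unexposed mice. Krtdap and Mt4, a metallothionein of stratified epithelium, were highest on these 3 arrays as well. The keratins of the basal layer were not: Krt5, Krt14 and Krt15 stayed between 3.19 and 4.66 on all 6. Within that range Krt14 had a lower mean in the exposed mice, by -0.78 under quantile normalization, and did not pass. Of 32 measured squamous genes, 18 had their 3 highest values on the 3 arrays high in Krt4, as did 288 of all 8251 genes. The 3 arrays were picked by squamous genes such as Krt13 and Krt4, so this count describes the pattern and does not test it.

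The mean level of 9 squamous genes was 4.54, 4.67 and 6.58 in the exposed mice and 7.74, 8.09 and 4.70 in the unexposed mice. Exposed mouse 3 was intermediate. Over the whole series this level had a gap between 4.91 and 6.58, and a cut of 5.5, set after the values were seen, placed 16 of 95 arrays above it. These were the 3 arrays named here and 13 of the other 89, and 0 of the 5 arrays of the C57BL/6 mice of day 32.

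Skeletal muscle genes were high on the unexposed arrays with squamous transcripts. Acta1, skeletal alpha-actin, was at 3.58, 3.47 and 8.66 in the exposed and at 11.68, 12.18 and 3.36 in the unexposed mice, a difference of -3.84 (SE 2.19, limma adjusted p = 0.459). Ckm, muscle creatine kinase, was at 3.71, 3.70 and 4.93 against 6.90, 8.07 and 5.03, and Tnnc2, fast troponin C, at 3.87, 5.61 and 6.35 against 8.90, 10.05 and 5.18. In Ckm the groups did not overlap, but exposed mouse 3 and unexposed mouse 3 lay close together. The other probe set of Ckm gave a difference of 0.78, and that of Tnnc2 gave -0.29. Of 27 skeletal muscle genes, 23 had their 2 highest values in unexposed mice 1 and 2, against 592 of all 8251 genes. The list's median level was 5.18, 4.87 and 5.52 in the exposed mice and 6.90, 7.74 and 5.23 in the unexposed mice.

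Fat genes followed another set of arrays. Pck1, the gluconeogenic enzyme also used in fat to make glycerol, was at 5.44, 3.55 and 3.32 in the exposed mice and at 4.17, 6.48 and 5.68 in the unexposed mice. The median level of 17 adipose genes was 6.71, 4.08 and 4.84 in the exposed and 4.83, 7.18 and 5.75 in the unexposed mice, so exposed mouse 1 and unexposed mice 2 and 3 were highest. Bpifb1, a secreted protein of large airways and glands, was at 10.33, 6.98 and 6.77 in the exposed mice and at 8.18, 9.84 and 10.70 in the unexposed mice. Its 3 highest arrays were the ones highest in the adipose list. Clca1, a goblet cell product, was at 7.68, 4.66 and 4.68 against 4.73, 6.55 and 6.44, again highest on those 3 arrays, and its difference was -0.23 (SE 0.74).

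**Figure D1:**
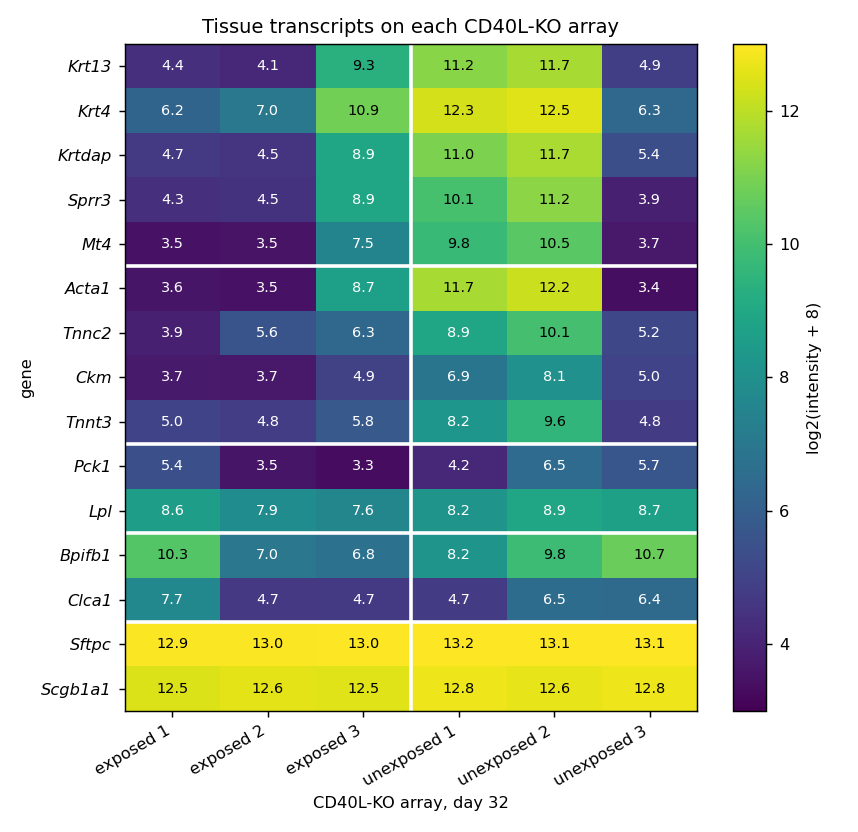
Level, as log2(intensity + 8), of 15 tissue genes (rows) on each of the 6 CD40L-KO arrays (columns); white lines part squamous, skeletal muscle, adipose, large airway and lung genes. Krt13 is at 9.34 or more in exposed mouse 3 and unexposed mice 1 and 2 and at 4.87 or less on the other 3 arrays, while Sftpc lies between 12.95 and 13.19 on all 6.

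Few differences between the exposed and unexposed mice passed the test. It called 6 of 8251 genes (0.0727%): Ppm1b, H2-Ob, Ensa, Snx2 and Adk rose and Ddx49 fell. At an unadjusted p under 0.05, 773 genes (9.37%) were higher and 376 (4.56%) lower in exposed mice; under quantile normalization these became 584 and 493. The median difference over all genes was 0.06, and 58.5% of genes lay above 0. The exposed values lay above all unexposed values in 1119 genes (13.6%) and below them in 582 (7.05%). The 6 genes depended on single arrays: 0 passed without exposed mouse 1, exposed mouse 3 or unexposed mouse 2, 1 passed without exposed mouse 2, and 54 passed without unexposed mouse 3, of which 37 were lower. With the squamous level as a covariate, 0 passed. Without the 3 squamous arrays only unexposed mouse 3 remains in its group, so no count is given.

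Ppm1b, a protein phosphatase of the PP2C family, was at 7.07, 6.94 and 7.13 in the exposed mice and at 5.80, 5.93 and 5.88 in the unexposed mice. The groups lay well apart, and the difference was 1.18 (SE 0.13, limma adjusted p = 0.0127), 2.26-fold. Of its other 2 probe sets, 1 gave 1.19 and 1 gave 0.16. In the C57BL/6 mice of the same cages the difference was -0.34. The effects of the 2 strains differed by 1.52 (limma adjusted p = 0.0243).

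Adk, adenosine kinase, which turns adenosine into AMP, was at 9.08, 9.07 and 9.03 in the exposed mice and at 8.30, 7.99 and 8.10 in the unexposed mice. The 3 exposed values were nearly equal and lay above every unexposed value; the difference was 0.93 (SE 0.13, limma adjusted p = 0.0375). Its other 2 probe sets differed by 0.27 and 0.35. Snx2, a sorting nexin that acts in transport from endosomes, was at 8.30, 8.20 and 8.26 against 7.38, 7.08 and 7.43. The groups did not overlap, with a difference of 0.96 (SE 0.13, limma adjusted p = 0.0375), and its other probe sets gave 0.17 and 0.53. For both genes the brightest probe set thus showed the largest difference.

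Ensa, an inhibitor of the phosphatase PP2A in mitosis, was at 6.11, 5.89 and 5.73 in the exposed mice and at 4.86, 5.10 and 4.82 in the unexposed mice. Every exposed value was higher, and the difference was 0.98 (SE 0.14, limma adjusted p = 0.0431). Ddx49, an RNA helicase, was at 3.79, 4.02 and 3.72 in the exposed mice and at 5.20, 5.14 and 5.07 in the unexposed mice. It was close to the lowest possible level in the exposed mice and fell by 1.29 (SE 0.13, limma adjusted p = 0.0127). In C57BL/6 mice Ddx49 rose by 1.07 (limma adjusted p = 0.0104), from 3.68 to 4.74 on average, so the level of the exposed CD40L-KO mice was near that of the unexposed C57BL/6 mice.

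H2-Ob, the beta chain of the class II molecule H2-O that restrains peptide loading in B cells, was at 6.61, 6.74 and 6.74 in the exposed mice and at 5.76, 5.37 and 5.71 in the unexposed mice. The groups were separate, with a difference of 1.08 (SE 0.14, limma adjusted p = 0.0375), 2.12-fold. It was the 1 gene among all 38 lists that rose. In C57BL/6 mice its difference was 0.20, and the test of the difference between strains did not pass (limma adjusted p = 0.119).

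**Figure D2:**
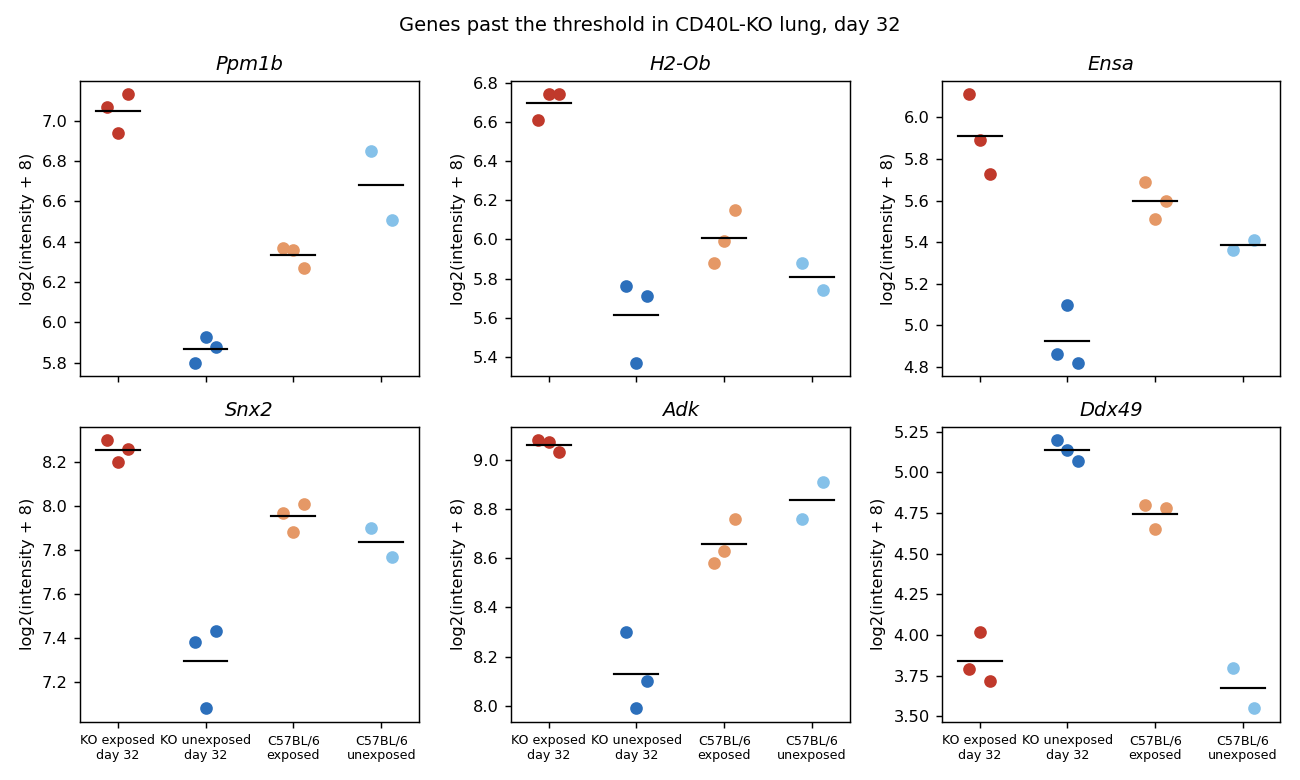
Level, as log2(intensity + 8), of the 6 genes that passed, 1 panel each with its own axis range; points are mice (CD40L-KO and C57BL/6, day 32, exposed and unexposed) and lines are group means. The CD40L-KO groups do not overlap in any panel, and Ddx49 runs the opposite way in C57BL/6 mice.

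Other ways of processing the arrays kept the direction of the 6 genes but not all calls. Over 18 or 19 settings each, Ddx49 passed in 9, Ppm1b, H2-Ob and Adk in 7, Snx2 in 5 and Ensa in 3, all in the same direction. Without the 3 squamous arrays the differences were 1.12 for Ppm1b, 0.96 for H2-Ob, 0.98 for Adk and -1.16 for Ddx49. These rest on unexposed mouse 3 alone for its group, so they do not show how far the differences depend on the squamous arrays. Adding the Gapdh probe ratio described below as a covariate gave 1.17 for Ppm1b, 1.16 for H2-Ob, 0.84 for Adk, 1.04 for Snx2, 0.67 for Ensa and -1.49 for Ddx49, with SEs of 0.27 to 0.30.

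Beside the other 89 arrays of the series, the 2 groups lay on either side of the median for 5 of the 6 genes, the exposed mice farther from it. For Ppm1b the exposed mice averaged 7.05 and the unexposed mice 5.87, while the other arrays had a median of 6.37 and a range of 5.02 to 7.63. For Adk the means were 9.06 and 8.13, and the other arrays had a median of 8.40 and reached 9.09. For H2-Ob they were 6.70 and 5.61 against a median of 6.00 and a range of 4.69 to 6.81. For Ensa both means, 5.91 and 4.93, lay above the median of 4.83. The 32 other unexposed mice spanned 5.30 to 7.63 for Ppm1b, 4.69 to 6.76 for H2-Ob and 6.75 to 8.98 for Adk. Both group means of Ppm1b and of H2-Ob lay within these ranges, and the exposed mean of Adk lay above its range. The 15 genes nearest to the threshold, all at an adjusted p of 0.0625, included Scn7a (1.10, SE 0.19) and the muscle regulator Myog (-1.17, SE 0.18).

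A second set of CD40L-KO mice allowed a similar contrast on separate arrays: 4 mice exposed for 35 days and 5 unexposed mice labelled day 14. They are the CD40L-KO groups left for the repeat described in the design text. The labels put its exposed and unexposed mice at different days, so exposure and day cannot be told apart in this set. Although labelled female, these 9 arrays had Xist at 3.18 to 4.24 and Eif2s3y at 6.56 to 7.02, which goes against the label. With limma 0 of 8251 genes (0.0%) passed, and 769 had an unadjusted p under 0.05. Of the genes that rose at day 32, Ppm1b differed by -0.18, H2-Ob by -0.10, Adk by -0.15, Snx2 by -0.35 and Ensa by -0.30, each with the opposite sign. Ddx49 differed by 0.06. Ppm1b averaged 7.29 in the exposed and 7.47 in the unexposed mice, above both groups of day 32. H2-Ob (6.37 and 6.47), Adk (8.48 and 8.63) and Ensa (5.55 and 5.85) lay between the group means of day 32. Differences over 1 in size were rarer than at day 32, 16 genes against 132.

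Exposure also moved with RNA quality and array brightness at day 32. For Gapdh, the 3' probe set divided by the 5' one, a ratio that rises as RNA degrades, was 0.92 to 1.00 in the exposed and 1.16 to 1.37 in the unexposed mice, without overlap. The Actb ratio was 1.05 to 1.18 against 1.18 to 1.42, and the median intensity 42.8 to 44.2 against 38.9 to 41.5. The part of these differences in the genes below was not tested. Because the Gapdh ratio did not overlap between the groups, using it as a covariate cannot separate it from exposure. With it, 0 genes passed, the skeletal muscle median moved from -1.09 to -2.89 and the B cell median from 0.40 to 0.23. Values with this covariate are therefore given as descriptions only. Actb, the cytoplasmic actin often used as a control, showed -1.07 (SE 0.20, limma adjusted p = 0.0715) at its brightest probe set and 1.31 at the other.

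Among B cell genes the exposed mice were mostly higher, though none of the 19 passed. 18 had a higher mean, as did 58.5% of all genes. 6 were higher with an unadjusted p under 0.05, as were 9.37% of all genes. In 7 the exposed values lay above all unexposed values. That is 36.8%, where 13.6% of all genes did so. The list's median difference was 0.40, against 0.06 over all genes, 0.09 in C57BL/6 mice and 0.09 at day 35. It was 0.43 without the squamous arrays and 0.23 with the Gapdh ratio as a covariate. Fcer2a, the low-affinity IgE receptor CD23 of mature B cells, was at 6.93, 7.35 and 7.26 in the exposed mice and at 5.93, 6.24 and 5.99 in the unexposed mice. The groups were separate, with a difference of 1.13 (SE 0.21, limma adjusted p = 0.0736), and C57BL/6 mice showed 0.90.

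Blk, a kinase of the B cell receptor pathway, was at 6.23, 6.63 and 6.55 in the exposed mice and at 5.78, 6.20 and 5.65 in the unexposed mice, with a difference of 0.59 (SE 0.17, limma adjusted p = 0.192). The receptor chains Cd79a and Cd79b and the inhibitory co-receptor Cd22, named here after their values were seen, differed by 0.63, 0.48 and 0.53, each with separate groups and an adjusted p of 0.193 to 0.314. Of 14 genes of antibody secretion, 12 had a higher mean, as did 58.5% of all genes. The groups were separate in 1 (7.1%, against 13.6% of all genes). The median difference was 0.19, or 0.01 with the Gapdh ratio as a covariate and 0.31 without the squamous arrays. The 1 gene was the heavy chain segment Ighv1-54, at 7.08, 6.15 and 6.51 against 5.02, 5.67 and 3.33 (1.91, SE 0.56, limma adjusted p = 0.193). For Ighv1-54 the difference was 3.29 without the squamous arrays, where the unexposed mouse at 3.33 stood alone in its group. It was 0.05 (SE 0.96) with the Gapdh covariate. Jchain, which joins IgA and IgM, differed by -0.02, and by 0.98 and -1.15 under these settings. Igha, the IgA heavy chain, differed by 0.17 and Ighm by 0.37.

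CD40 signalling was measured by 31 genes, and none passed. 4 (12.9%) had exposed values above all unexposed values and 1 below, near the 13.6% above and 7.05% below of all genes. The median difference was 0.10, and it was -0.01 without the squamous arrays and 0.28 with the Gapdh covariate. Cd40 itself was at 6.35, 6.01 and 5.89 in the exposed mice and at 6.02, 5.57 and 5.53 in the unexposed mice; the groups overlapped, and the difference was 0.38 (SE 0.18, limma adjusted p = 0.386). Ikbkb, a kinase that activates NF-kB, differed by 0.62 (SE 0.18, limma adjusted p = 0.184), with separate groups.

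Most class II genes other than H2-Ob differed little between the groups. Of 14 measured, 3 had exposed values above all unexposed values (21.4%, against 13.6% of all genes). The median difference was 0.18, and 0.08 without the squamous arrays. H2-Eb1, the beta chain of the antigen-presenting molecule I-E, was at 10.03, 10.14 and 10.24 in the exposed mice and at 10.14, 9.98 and 10.17 in the unexposed mice. These overlapped, with a difference of 0.04 (SE 0.19). H2-Aa differed by 0.04, H2-Ab1 by 0.24, the invariant chain Cd74 by 0.02 and the peptide exchange subunit H2-DMa by -0.05. H2-DMb2 showed more, 0.99 (SE 0.32, limma adjusted p = 0.226). In C57BL/6 mice H2-Eb1, H2-Ab1, H2-Aa, H2-DMa and H2-DMb1 rose by 1.16 to 1.56.

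The 250 bases before the annotated start of 3 genes are shown: H2-Ob, the class II gene that rose; H2-Eb1, which did not pass in these mice and rose in C57BL/6 mice; and Cxcl9, the interferon-induced chemokine with a large rise in C57BL/6 mice. They are RefSeq sequences of GRCm38.p6, at chr17:34238655-34238904 (plus strand), chr17:34305617-34305866 (plus strand) and chr5:92328080-92328329 (minus strand). Capitals mark matches, on either strand, to CTAGCAAC (an X box core, chosen with these windows in view), CCAAT and the NF-kB type pattern GGGNNTTCC.
H2-Ob: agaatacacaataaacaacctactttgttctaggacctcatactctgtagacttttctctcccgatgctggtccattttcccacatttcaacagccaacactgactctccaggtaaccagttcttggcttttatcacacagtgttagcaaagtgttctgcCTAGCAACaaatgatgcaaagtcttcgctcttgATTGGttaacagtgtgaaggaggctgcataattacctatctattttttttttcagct
H2-Eb1: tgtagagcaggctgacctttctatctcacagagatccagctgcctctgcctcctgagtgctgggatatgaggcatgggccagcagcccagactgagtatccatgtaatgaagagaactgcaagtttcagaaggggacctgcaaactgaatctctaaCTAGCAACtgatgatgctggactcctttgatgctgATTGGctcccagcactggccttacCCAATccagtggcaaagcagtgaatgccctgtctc
Cxcl9: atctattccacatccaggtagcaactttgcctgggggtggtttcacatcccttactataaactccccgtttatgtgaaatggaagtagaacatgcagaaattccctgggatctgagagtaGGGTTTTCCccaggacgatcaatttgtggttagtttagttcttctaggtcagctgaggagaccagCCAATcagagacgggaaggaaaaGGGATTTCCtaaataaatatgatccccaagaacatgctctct
The X box core stands 90 bases before the start of H2-Ob and 94 before that of H2-Eb1, each followed by a reverse CCAAT, 57 and 59 bases before the start. The Cxcl9 window has 2 NF-kB type matches, 130 and 42 bases before the start, and a CCAAT at 65. Of 32851 windows of this length, 1.13% hold the X box core, 33.8% CCAAT, 4.98% the NF-kB type and 7.02% the interferon-gamma type pattern TTCNNNGAA, which none of the 3 holds. The letters alone do not show that a factor binds.

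Macrophage genes had 7 of 34 (20.6%) with exposed values above all unexposed values and 2 (5.9%) below, where all genes had 13.6% and 7.05%, a median difference of 0.20, and none that passed. The median was 0.13 without the squamous arrays and -0.17 with the Gapdh ratio as a covariate. Cybb, the catalytic subunit of the phagocyte oxidase, was at 6.43, 6.12 and 6.62 in the exposed mice and at 4.97, 5.07 and 5.39 in the unexposed mice. The groups were well apart, with a difference of 1.25 (SE 0.25, limma adjusted p = 0.0867), close to the 1.21 of C57BL/6 mice; without the squamous arrays it was 0.88 (SE 0.40). Adgre1, the macrophage marker F4/80, differed by 1.23 (SE 0.32, limma adjusted p = 0.148), but its other probe set by -0.09. Chil3, a product of alternatively activated macrophages, differed by 0.06 (SE 0.23).

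Interferon-gamma response genes showed small differences. Of 26, none passed, 5 (19.2%, against 13.6% of all genes) had separate higher groups, and the median difference was 0.12, against 1.14 in C57BL/6 mice, where 12 rose; with the Gapdh ratio as a covariate it was -0.03. Ifngr2, a receptor chain for interferon-gamma, had the smallest p, at 6.66, 6.83 and 6.95 against 5.65, 6.08 and 5.86 (0.95, SE 0.20, limma adjusted p = 0.0922). Cxcl9 was at 4.21, 3.35 and 4.32 in the exposed mice and at 3.34, 3.20 and 3.30 in the unexposed mice. Its groups were separate by a narrow margin, and the difference was 0.68 (SE 0.28, limma adjusted p = 0.32). Ifng was near the lowest possible level, with a difference of -0.25 (SE 0.30).

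Other leukocyte genes did not pass in any list. Of 23 T cell genes, 2 (8.7%) had exposed values above all unexposed values, against 13.6% of all genes, and 1 below, with a median difference of 0.08, against 0.91 in C57BL/6 mice. Cd3d, a chain of the T cell receptor complex, was at 5.13, 5.14 and 5.24 in the exposed mice and at 4.85, 4.39 and 4.83 in the unexposed mice. These groups were separate (0.48, SE 0.23, limma adjusted p = 0.386), but the other probe set of Cd3d gave -0.09. Of 16 class I presentation genes, 4 (25%, against 13.6% of all genes) had separate higher groups and 0 lower; the median difference was 0.10, and 0.02 without the squamous arrays. H2-Q4, a non-classical class I molecule, was at 10.87, 10.54 and 10.88 against 10.23, 9.81 and 10.21 (0.68, SE 0.19, limma adjusted p = 0.179). Tap1, which carries peptides to class I molecules, differed by 0.34 (SE 0.26) and rose by 2.05 in C57BL/6 mice.

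Of 12 lymphoid tissue chemokine and receptor genes, 3 (25%, against 13.6% of all genes) had separate higher groups. The median difference was 0.19, and 0.05 with the Gapdh covariate. Cxcr4, the receptor for Cxcl12, was at 6.17, 6.41 and 6.86 in the exposed mice and at 5.77, 5.36 and 5.81 in the unexposed mice. Its groups did not overlap, and the difference was 0.84 (SE 0.20, limma adjusted p = 0.133). Of 19 neutrophil genes 1 (5.3%) lay above and 1 (5.3%) below, where 13.6% and 7.05% of all genes did so. The neutrophil median of -0.10 turned to 0.32 without the squamous arrays and to 0.28 with the squamous level as a covariate. In the goblet cell list, 2 of 11 genes (18.2%, against 13.6% of all genes) had separate higher groups: Spdef, a goblet cell transcription factor, with 0.82 (SE 0.22, limma adjusted p = 0.159) and the trefoil factor Tff3, with 0.47 (SE 0.17, limma adjusted p = 0.259). The mucin Muc5ac stayed between 3.17 and 3.62 on all 6 arrays. Chia1, a chitinase of the type 2 response, was at 7.52, 7.71 and 7.52 against 7.17, 6.89 and 6.98. Its groups were separate (0.57, SE 0.24, limma adjusted p = 0.338), and it rose by 1.86 in C57BL/6 mice. Il13, a cytokine of that response, differed by 0.01 at a level of 3.71 to 4.17.

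The C57BL/6 mice of the same cages give the scale. In them 111 genes (1.35%) rose and 25 (0.303%) fell. In the CD40L-KO mice the 111 genes had a median difference of 0.15, against 1.47 in the C57BL/6 mice that chose them; 72 lay above 0, where 58.5% of all genes did, and 1 was over 1. In 24 (21.6%) the exposed values lay above all unexposed values, as in 13.6% of all genes. With the Gapdh ratio as a covariate their median was -0.14. 0 of them rose and Ddx49 fell. The 25 genes had a median of 0.00 in the CD40L-KO mice, and 13 lay above 0. In 6 of the 25 the exposed values lay below all unexposed values, as in 7.05% of all genes. In 5 of the 25 the exposed values lay above all unexposed values, as in 13.6% of all genes. The paraoxonase Pon1, which fell by 2.79 in C57BL/6 mice, was at 7.45, 7.51 and 7.24 against 8.45, 7.89 and 8.70 in CD40L-KO mice (-0.94, SE 0.42, limma adjusted p = 0.352).

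The effects of the 2 strains differed in 14 genes (0.17%). Saa3, an acute phase protein made in lung epithelium and macrophages, was at 4.86, 4.84 and 5.34 in exposed and at 5.41, 5.28 and 5.18 in unexposed CD40L-KO mice. The groups overlapped, with a difference of -0.28 (SE 0.40), while C57BL/6 mice rose by 5.30; the effects differed by -5.58 (limma adjusted p = 0.00773). Cxcl9 differed by -3.81, the interferon-induced GTPase Iigp1 by -2.75, the immunoglobulin transporter Pigr by -2.21, the mucin Muc5ac by -1.66 and the NF-kB regulator Nfkbiz by -1.42. Iigp1 and Nfkbiz have 1 other probe set each. For Iigp1 it gave 0.42 in CD40L-KO and 3.45 in C57BL/6 mice. For Nfkbiz it gave 0.46 and 0.48, so the difference between strains was not seen there. Ccl2, a monocyte chemokine, was at 4.29, 4.05 and 3.99 against 4.69, 4.98 and 4.04 and rose by 3.76 in C57BL/6 mice, but the test between strains did not pass (limma adjusted p = 0.0703).

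The same held for Clca1 (limma adjusted p = 0.0999). Of the 14, Ppm1b, Lrp6, a Wnt co-receptor, Hpgd, which breaks down prostaglandins, and Fabp1 had the more positive effect in CD40L-KO mice. Lrp6 was at 7.56, 7.79 and 7.63 against 7.01, 6.84 and 7.28 in CD40L-KO mice, and fell by 0.85 in C57BL/6 mice. Its groups were separate, and the effects differed by 1.46. The other probe set of Lrp6 gave -0.23 in CD40L-KO and -0.58 in C57BL/6 mice, so its sign in CD40L-KO mice was the opposite. The count of 14 depended on single arrays too. Among omissions that kept 2 or more mice in each group, it ranged from 3, as without exposed C57BL/6 mouse 1, to 197 without exposed C57BL/6 mouse 2.

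**Figure D3:**
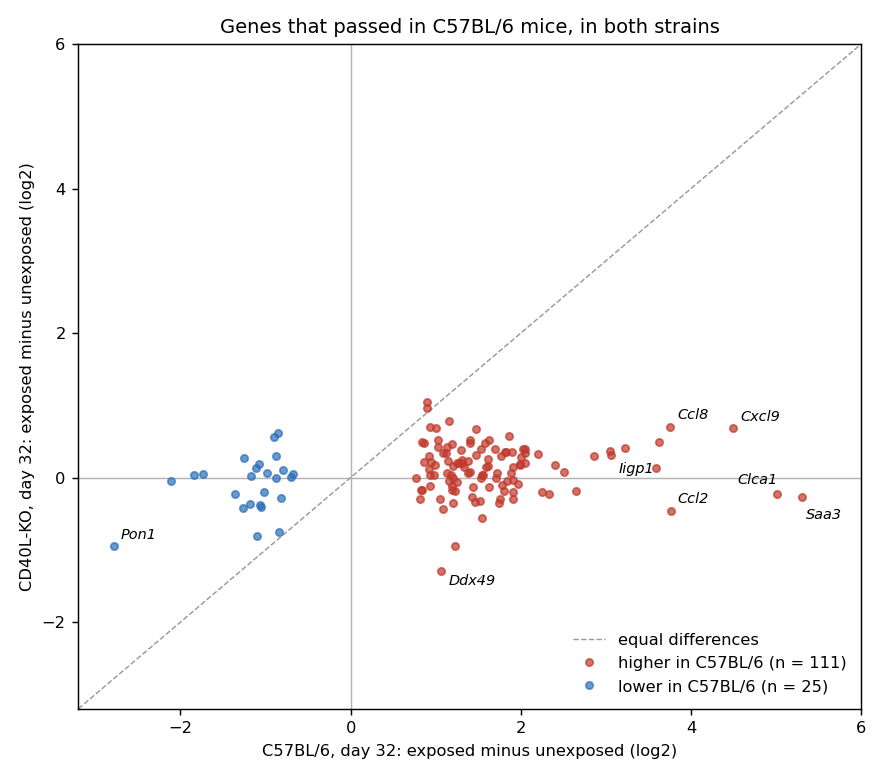
Difference, exposed minus unexposed on the log2 scale, in C57BL/6 mice (horizontal) and CD40L-KO mice (vertical) at day 32, for the 111 genes that rose (red) and the 25 that fell (blue) in C57BL/6 mice; each point is a gene and the dashed line marks equal differences. The red points had a median of 1.47 horizontally and 0.15 vertically; Ddx49 is at 1.07 and -1.29.

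Some gene groups lay lower in the exposed CD40L-KO mice, with no member that passed. Of 53 respiratory chain genes, 11 (20.8%) had exposed values below all unexposed values, where 7.05% of all genes did so, and 1 above; the median difference was -0.27, as in C57BL/6 mice, -0.10 without the squamous arrays and -0.57 with the Gapdh covariate. Uqcrc2, a core subunit of complex III, was at 8.69, 8.34 and 8.12 in the exposed mice and at 9.07, 9.51 and 8.94 in the unexposed mice. The groups were separate (-0.79, SE 0.22, limma adjusted p = 0.177). Ndufs4, of complex I, went the other way, with 0.91 (SE 0.22, limma adjusted p = 0.138).

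Of 34 genes of xenobiotic metabolism, 10 (29.4%) lay below all unexposed values and 2 (5.9%) above, where 7.05% and 13.6% of all genes did so. The median difference was -0.20, which the Gapdh covariate turned to 0.19. In C57BL/6 mice the median was -0.62, and 2 of these genes fell. Adh7, an alcohol dehydrogenase of epithelia, was at 7.38, 7.15 and 7.93 against 8.08, 9.10 and 8.44, a difference of -1.05 (SE 0.35, limma adjusted p = 0.226). Gstp1, a glutathione transferase, differed by -0.51 (SE 0.16, limma adjusted p = 0.201). Among 18 glucocorticoid response genes 5 (27.8%) lay below and 2 (11.1%) above, against the same 7.05% and 13.6% of all genes. Their median was -0.33, or 0.20 with the Gapdh covariate, and -0.18 in C57BL/6 mice. Angptl4, which inhibits lipoprotein lipase, was at 6.26, 6.49 and 6.34 against 6.97, 7.18 and 7.21, and the groups were separate. Its difference was -0.76 (SE 0.14, limma adjusted p = 0.0736), and its other 3 probe sets gave -1.32 to 1.25. The metallothionein Mt2 was at 7.66, 7.64 and 7.80 in the exposed mice and at 9.29, 10.04 and 8.19 in the unexposed mice, so unexposed mice 1 and 2, which carried squamous transcripts, were highest.

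The widest differences, over 1 on the log2 scale, were of another make-up in each direction. Of 87 genes lower by over 1, 39 were in the squamous, muscle or adipose lists. Of 45 genes higher by over 1, 0 were. Those lists hold 32 squamous, 27 skeletal, 19 cardiac and 13 smooth muscle and 17 adipose genes of 8251, so few of any 45 genes would be in them. Separate groups were found in 23 of the 87, where 7.05% of all genes lay below, and in 42 of the 45, where 13.6% lay above. A choice by wide differences itself favours separate groups. Calcrl, the receptor component for adrenomedullin on endothelium, was 1 of the 45, at 6.74, 6.98 and 6.05 against 5.54, 5.20 and 5.16 (1.29, SE 0.23, limma adjusted p = 0.071).

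**Figure D4:**
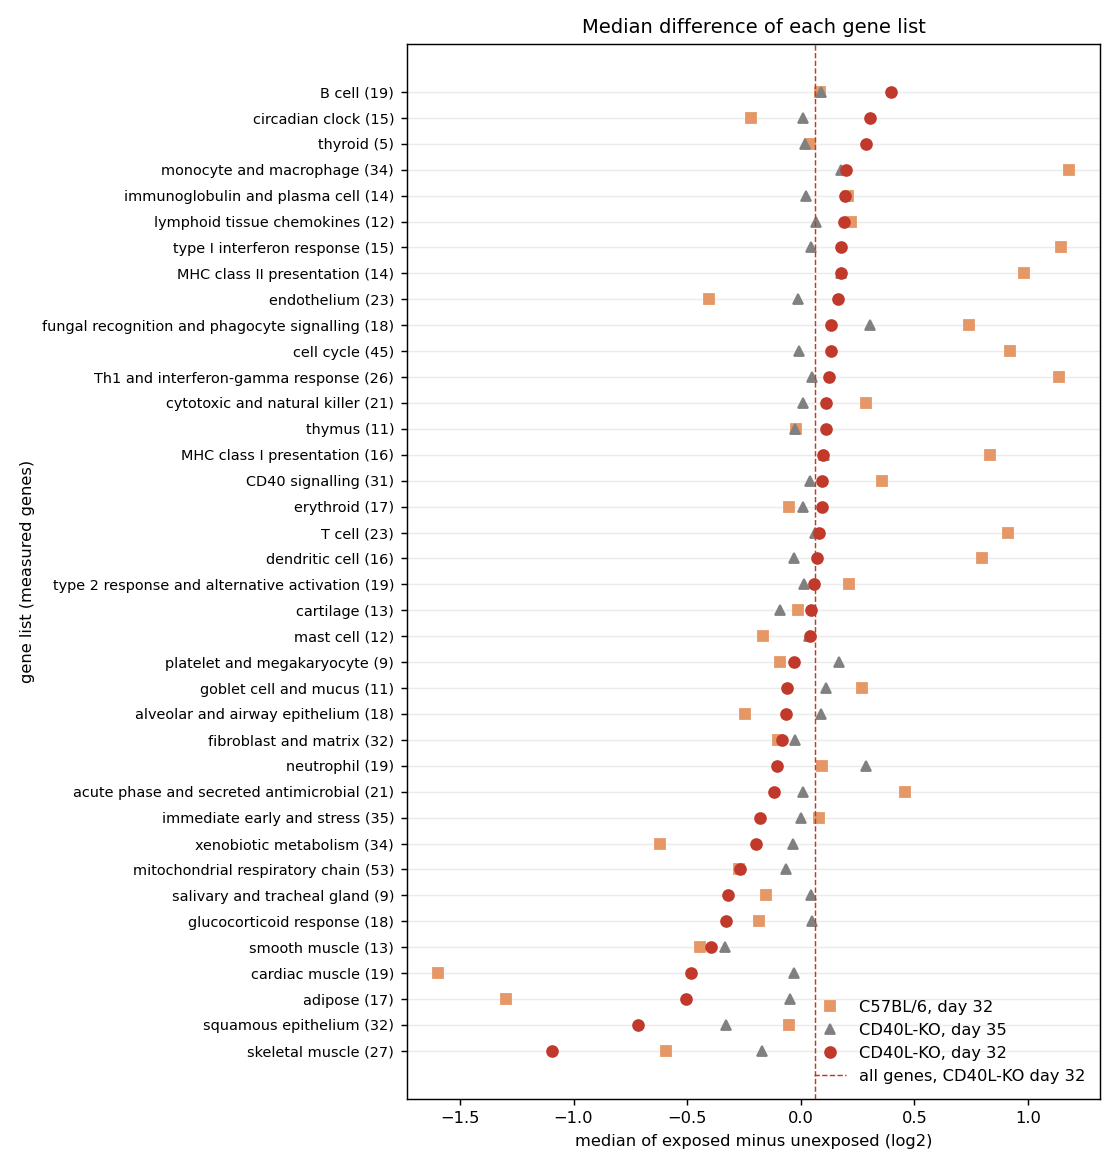
Median of exposed minus unexposed differences, on the log2 scale, for each of 38 gene lists (number of measured genes in parentheses) in CD40L-KO mice at day 32 (circles), C57BL/6 mice at day 32 (squares) and CD40L-KO mice at day 35 (triangles); the dashed line is the median of all genes in CD40L-KO mice at day 32. Skeletal muscle, at -1.09, and squamous epithelium, at -0.72, lie lowest, and B cell genes, at 0.40, highest among the circles.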

How the data were processed

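Per the labels' protocols, total RNA from homogenised mouse lung was transcribed into biotin-labelled copies for single-colour Affymetrix arrays. The authors deposited linear intensities of 12487 probe sets, with 1 missing value; how probes were summarised is not stated in the labels. With 2% of values trimmed from either end, the array means ranged from 100.05 to 100.07, so a common scaling had been applied before deposit. Intensities were used without further scaling as log2(intensity + 8), an offset near 6.76, below which 20% of values lay. The platform annotation named 1 gene for 10855 probe sets, more than 1 for 396 and no gene for 1236; 65 control probe sets were left out, and 10816 of 10832 named probe sets matched the RefSeq table. The brightest probe set stood for each of 8251 genes, of which 2072 had several.

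The 4 groups of day 32 were fitted together with lmFit and eBayes of limma 3.58.1 (R 4.3.3), which shares the spread among them, and the CD40L-KO mice of day 35 with the unexposed mice labelled day 14 in a fit of their own; p-values were adjusted by Benjamini-Hochberg over all genes. Gene lists were described by counts and medians, without a set test. The members, the 38 gene lists and the rule for naming genes were chosen with earlier results of these data known. The rule took every gene that passed, the 12 largest differences in each direction among brighter genes, up to 4 passing members per list (otherwise the 2 of smallest p), the 12 largest rises and 6 largest falls in C57BL/6 mice, genes whose effects differed between strains, and a fixed set of immune, keratin, muscle and control genes; the text marks names chosen outside it.

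The settings tried in turn were offsets of 2 and 32, quantile normalization, the mean of all probe sets, an intensity trend, a filter that keeps 5500 brighter genes, the CD40L-KO arrays alone, all 95 arrays in 1 fit, covariates for the squamous level or Gapdh ratio, the replicate number as a block, leaving out arrays with a squamous level over 7, and leaving out each array. Leaving out arrays over 5.5 was added after seeing the data. Both cuts leave 1 unexposed CD40L-KO mouse at day 32. Tested on simulated data of 8251 genes, the day 32 fit recovered, for log2 changes of 0.5, 1, 2 and 4, 6, 28, 47 and 50 of 50 genes each, with 5 false calls. The simulated noise was normal and independent between genes and arrays. It held no squamous arrays, RNA quality difference or cage, so these counts do not carry over to the 6 arrays. Python 3.11.15 (numpy 2.4.6, pandas 2.3.3, matplotlib 3.10.9) made the tables and figures.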

Additional observations from a re-analysis of the deposited data

Results flagged for a closer look

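The exposure effect of CD40L-KO mice minus that of C57BL/6 mice at day 32 passed limma's test of the difference in 14 genes, each singled out because its 2 effects differed. It was -5.58 for Saa3, -3.81 for Cxcl9, -2.75 for Iigp1, -2.36 for Ddx49, -2.21 for Pigr, -2.17 for the mitochondrial transporter Abcb8, -1.84 for the kallikrein Klk1b1, -1.66 for Muc5ac, -1.42 for Nfkbiz and -1.35 for Manf, a protein of the endoplasmic reticulum. It was 1.88 for the fatty acid binding protein Fabp1, 1.52 for Ppm1b, 1.46 for Lrp6 and 1.46 for Hpgd. Iigp1, Nfkbiz, Fabp1 and Lrp6 have 1 other probe set each, with its own differences in CD40L-KO and C57BL/6 mice. These were 0.42 and 3.45 for Iigp1 and 0.46 and 0.48 for Nfkbiz. They were 0.38 and -0.4 for Fabp1 and -0.23 and -0.58 for Lrp6.

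The CD40L-KO mice of day 35 and the unexposed ones labelled day 14 were checked for arrays far from the rest of their group, in 20 tests of a measure within a group that are not independent of each other. 3 tests singled out an array, and chance does so in about 1 in 20. Among the unexposed CD40L-KO mice labelled day 14, 1 mouse had a squamous level of 6.92 and a skeletal muscle level of 7.31, the highest of its group. Among the CD40L-KO mice exposed for 35 days, 1 had Ensa at 5.43.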

How the results depend on the processing

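For CD40L-KO mice at day 32, where 6 genes passed, the count was 0 with the CD40L-KO arrays alone. It was also 0 with the Gapdh ratio or squamous level as a covariate. Leaving out arrays over a squamous level of 7 or 5.5 left 1 unexposed CD40L-KO mouse, so no count is given for those settings. The count was 3 with the mean of probe sets, 3 with quantile normalization (2 higher and 1 lower) and 2 with an offset of 2. It was 13 with an offset of 32, 27 with the filter on dim genes and 86 with all arrays in 1 fit. Leaving out single mice gave 0 to 54. For the difference between strains, where 14 passed, the count was 0 with the Gapdh ratio and 3 with the squamous level or an offset of 2. It was 9 with the mean of probe sets, 25 with the filter on dim genes, 27 with an offset of 32, 28 with an intensity trend and 301 with all arrays. Leaving out single mice gave 3 to 197 where each group kept 2 or more mice. At day 35, where 0 passed, it was 3 with an offset of 2, 21 with all arrays and 0 to 1 without single mice. The causes were not tested. With the replicate number as a block, 0, 3 and 0 genes passed; same-numbered mice at day 32 had correlations of deviations of -0.24 to -0.12, so the numbers do not pair the mice. No gene that passed changed sign. Of 39 medians (38 lists and the genes higher in C57BL/6 mice), 13 changed sign with the Gapdh ratio and 7 without the squamous arrays. List medians moved by more than the replicate spread in 48 of 740 cases. Dim genes such as Ddx49, Cxcl9 and Ifng lie near the lowest level, where signal over background limits what can be seen.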

Other observations

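Genes of the daily clock had a median difference of 0.31 in CD40L-KO mice at day 32 over 15 measured genes, none of which passed, against -0.22 in C57BL/6 mice. It was 0.11 with the Gapdh ratio as a covariate and 0.34 without the squamous arrays. Nr1d1, a repressor of the clock, was at 5.52, 5.63 and 5.54 in the exposed mice and at 6.22, 6.04 and 6.03 in the unexposed mice, so the groups were separate (-0.53, SE 0.12, limma adjusted p = 0.101). Cry1, another repressor, was at 7.63, 7.83 and 7.64 against 7.24, 7.36 and 7.29, also separate (0.40, SE 0.12, limma adjusted p = 0.193). The 2 other probe sets of Cry1 gave -0.0 and 0.08. Mcm4, a helicase subunit of DNA replication, was at 6.03, 6.15 and 6.10 against 5.26, 5.38 and 5.53 (0.70, SE 0.15, limma adjusted p = 0.0978), and the 45 cell cycle genes had a median of 0.13, which was -0.14 with the Gapdh covariate and 0.31 without the squamous arrays. The labels do not give the hour at which mice were killed.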
